A study of Mus musculus with 8 samples.

Results

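Gene expression was compared between 2 arrays of parthenogenetic mouse neural stem cells (pNSC) and 2 arrays of neural stem cells titled female (fNSC), out of 8 arrays in 4 groups. The comparison took in every gene that the platform annotation names and that was detected above background in at least 1 group, 8107 genes in all. RNA was hybridised to Illumina BeadChips, on which beads carrying a probe shine in proportion to the RNA bound. The other groups, neural stem cells titled miPS-NSC and embryonic fibroblasts (MEF), entered the fit that estimates the spread between arrays. The fNSC carry the genotype OG2ROSA and the number P27 in the sample name, and the pNSC the genotype OG2+/- and the number P18, so that origin of the genome, genotype and this number cannot be told apart. The miPS-NSC (P8) and the MEF are also labelled OG2+/-, although the MEF signal columns are named OG2ROSA1. All samples are labelled female, and the medium given for every group holds the growth factors EGF and bFGF. Nothing in the labels says that the arrays of a group come from separate cultures, and the second array of each pair bears a title ending that is not explained, so the p-values cover the spread between 2 hybridisations of a group and perhaps no more than technical error. The labels call the fNSC only female and state no parental origin, and they are taken here as cells with a genome from both parents.

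A parthenogenetic embryo develops from an egg with no contribution of sperm, and both copies of its genome come from the mother. Imprinted genes are read from the copy of only 1 parent, because DNA methylation laid down in the egg or the sperm marks the copies differently. A gene read from the paternal copy is therefore left without an active copy in such cells, whereas a gene read from the maternal copy has an active allele on both homologues. Several paternally expressed genes are strongly expressed in the developing brain, and the genes around Snrpn are those affected in Prader-Willi syndrome in humans.

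The promoters of 4 of the paternally expressed genes that were detected in fNSC and not in pNSC are shown, 1 window each out of 11 listed for 6 such genes, because silence of the maternal copy is known to go with DNA methylation near such promoters, and its target is the CpG dinucleotide. Each sequence runs from 250 bases before to 50 bases after the start of a RefSeq transcript in the build GRCm38.p6, on the strand of the gene, with each CG in capitals (the letters CG read the same on both strands). The Mest window, at a second start site, lies at chr6:30737800-30738099 on the plus strand, that of Nnat at chr2:157559828-157560127 on the plus strand, that of Nap1l5 at chr6:58907077-58907376 on the minus strand and that of Ndn at chr7:62348027-62348326 on the plus strand.
Mest: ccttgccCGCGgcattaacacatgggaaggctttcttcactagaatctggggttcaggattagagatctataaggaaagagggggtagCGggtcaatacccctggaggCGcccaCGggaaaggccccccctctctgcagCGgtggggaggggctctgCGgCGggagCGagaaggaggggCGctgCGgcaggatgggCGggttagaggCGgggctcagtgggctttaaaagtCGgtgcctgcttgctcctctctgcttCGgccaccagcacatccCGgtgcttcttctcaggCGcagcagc
Nnat: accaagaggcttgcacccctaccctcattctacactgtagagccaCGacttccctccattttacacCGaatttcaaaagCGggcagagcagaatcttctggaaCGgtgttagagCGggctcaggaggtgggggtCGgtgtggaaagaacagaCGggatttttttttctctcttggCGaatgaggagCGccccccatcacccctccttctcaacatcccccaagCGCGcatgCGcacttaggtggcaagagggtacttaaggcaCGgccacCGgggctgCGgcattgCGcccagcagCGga
Nap1l5: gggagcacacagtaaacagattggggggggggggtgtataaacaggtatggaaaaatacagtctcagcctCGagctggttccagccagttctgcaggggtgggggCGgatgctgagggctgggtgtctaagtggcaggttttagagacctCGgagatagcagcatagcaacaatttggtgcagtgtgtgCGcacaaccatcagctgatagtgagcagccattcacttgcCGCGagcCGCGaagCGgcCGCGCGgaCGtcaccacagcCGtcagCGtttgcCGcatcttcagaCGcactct
Ndn: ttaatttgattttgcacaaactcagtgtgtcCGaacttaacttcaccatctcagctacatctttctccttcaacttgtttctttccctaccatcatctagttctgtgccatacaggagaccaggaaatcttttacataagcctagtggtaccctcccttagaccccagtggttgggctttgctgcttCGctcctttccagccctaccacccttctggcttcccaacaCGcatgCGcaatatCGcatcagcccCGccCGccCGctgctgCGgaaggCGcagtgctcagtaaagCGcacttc
The windows of Mest, Nnat and Nap1l5 each hold 17 CG, a number reached or passed by 31.4% of the 32851 RefSeq promoters of this length, and that of Ndn holds 11 CG, reached or passed by 41.4%. The windows not shown hold 17 CG or fewer. The first start of Mest has 8 CG, reached or passed by 48.6%, Mkrn3 has 15, reached or passed by 34.6%, and the 4 windows listed for Snrpn have 2, 3, 4 and 7, reached or passed by 52.1% to 85.9% of promoters. The median was 7 over all promoters and 22 over the first promoters of 6652 genes tested here, so that no window of these genes reaches the median of the genes tested. Methylation was not measured on these arrays, and the count is a description of the windows.

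Paternally expressed genes were the group with the widest difference. Of 31 genes on the list 13 had a named probe and 11 passed the detection filter, and 7 of these 11 fell in pNSC while 0 rose, against 4.87% of all 8107 genes tested that were lower and 6.57% that were higher. The counts of every list below are to be read beside these 2 shares. A gene counts as called when its adjusted p from limma is under 0.05 and its change is at least 2-fold, and values are normalized log2 signals. Mest, a hydrolase-family gene of the growing embryo, read 13.21 and 13.63 on the fNSC arrays and 4.87 and 4.92 on the pNSC arrays. The groups lay far apart, and the fall was at least 148-fold (log2 difference -8.53, SE 0.185, limma adjusted p = 2.95e-07). Folds are written as "at least" where the dimmer group was not detected on both arrays. Its other probes, at -8.3 and -6.74, gave the same direction. Each call was also made with 2 other normalizations, quantile normalization without background correction and the authors' processed values, and calls lost under both are named below with their log2 differences in that order.

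Snrpn, which encodes a spliceosome protein, read 12.67 and 12.77 in fNSC and 5.15 and 5.06 in pNSC, at least 90.9-fold lower, with a second probe at -1.98. Mkrn3, a ubiquitin ligase gene of the same region of chromosome 7, read 9.73 and 9.72 against 4.76 and 4.87. Ndn, the growth-restraining necdin of that region, read 9.42 and 9.72 against 4.95 and 5.09. These 3 neighbours were above background in fNSC alone of the groups compared. Nnat, a small membrane protein of the developing brain, read 9.80 and 9.76 against 5.05 and 4.68, with its other probe at -3.64. Nap1l5, of the nucleosome assembly family, read 9.78 and 9.65 against 5.05 and 4.83. Impact, a regulator of translation under amino acid shortage, read 10.58 and 10.52 against 4.73 and 4.96. In each of the 7 genes both fNSC arrays stood above both pNSC arrays, a property that 5800 of the 8107 genes tested share in 1 direction or the other (71.5%).

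The 4 list members that were not called differed by less. Inpp5f, an inositol phosphatase with a paternally expressed brain transcript, read 11.69 and 11.73 in fNSC and 10.70 and 10.98 in pNSC (log2 difference -0.87, SE 0.122), and it reached -1.01 without the second pNSC array (limma adjusted p = 0.00199), which would be a call. Peg10, derived from a retroelement, stood at 5.84 and 5.97 against 4.80 and 5.10 and was not detected on any of the 4 arrays, so no fold is given. Its log2 difference of -0.95 became -1.1 without the second pNSC array and -1.02 without the first fNSC array, past the threshold in both. Igf2, the fetal growth factor, and Dlk1, a Notch ligand-like membrane protein, were likewise below background on all 4 arrays, at 5.03 to 5.49 and 5.23 to 5.77 in fNSC and at 5.71 to 6.15 and 5.69 to 6.23 in pNSC. The median of the 11 members was -4.77 (-3.50 with undetected genes at their bounds), beside -0.009 over all genes tested. With the other normalizations it was -2.51 and -2.41, and 7 members were again lower under each.

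**Figure D1:**
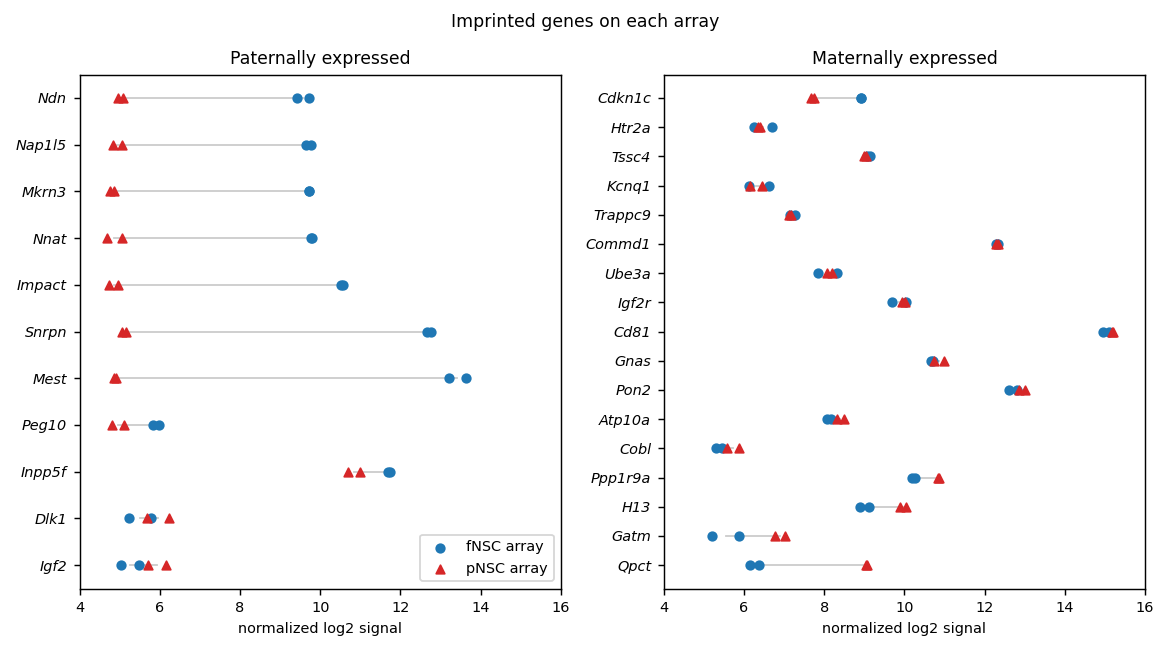
Normalized log2 signal (horizontal axis) of the measured paternally expressed genes (left) and maternally expressed genes (right) on each fNSC array (circles) and pNSC array (triangles), with a line joining the 2 group means. The 7 paternally expressed genes at the top lie between 9.42 and 13.63 in fNSC and at 5.15 or below in pNSC, whereas most maternally expressed genes lie at like levels in both.

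Most of the measured maternally expressed genes were not called. All 17 of the 42 listed genes that had a named probe were measured, with 2 higher, 1 lower and 14 not called, and a median of 0.16. The called shares were 11.8% higher and 5.88% lower, beside 6.57% and 4.87% of all genes tested. By the adjusted p alone 5 were higher (29.4%) and 1 lower (5.88%), beside 22.7% and 22.3% of all genes tested. Over all settings tried the median stayed between 0.1 and 0.25. Qpct, which forms pyroglutamate at the ends of peptides and is imprinted in the placenta, read 6.36 and 6.14 in fNSC and 9.07 and 9.04 in pNSC, at least 6.65-fold higher. Gatm, an enzyme of creatine synthesis, read 5.20 and 5.88 against 6.76 and 7.02, at least 1.60-fold higher over an undetected fNSC level. Cdkn1c, an inhibitor of the cell cycle, went the other way, from 8.92 on both fNSC arrays to 7.74 and 7.68, a 2.32-fold fall. Arrays of the groups did not overlap for any of these 3 genes, which holds for every called gene and for 71.5% of all genes tested. Gatm (0.46 and 0.47) and Cdkn1c (-0.79 and -0.81) kept their direction but fell short of 2-fold under both other normalizations. They lost their calls there, which leaves Qpct.

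The other maternally expressed genes spanned -0.09 to 0.96 on the log2 difference scale. H13, a peptidase that cuts signal peptides, stood at the top of this range, with 9.12 and 8.90 in fNSC and 9.89 and 10.04 in pNSC. It would be called without the first pNSC array (log2 difference 1.03) or without the first fNSC array (1.07). Ppp1r9a, a scaffold of the neuronal cytoskeleton, read 10.26 and 10.18 against 10.86 and 10.83. Igf2r, which clears IGF2 from the cell surface, read 10.03 and 9.70 against 9.95 and 10.02, and the groups overlapped. Ube3a, the ubiquitin ligase of Angelman syndrome in humans, read 8.31 and 7.85 against 8.19 and 8.07, also with overlap. The list holds genes imprinted in the placenta alone, and their imprinting in neural stem cells was not tested.

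Genes that lie beside imprinted genes were listed to describe the surroundings, and whether any of them is itself imprinted in these cells was not tested. Of 53 listed neighbours 29 were measured, with 3 higher (10.3%), 1 lower (3.45%) and a median of 0.29, beside 6.57% and 4.87% of all genes tested. By the adjusted p alone 12 neighbours were higher (41.4%) and 1 lower (3.45%), beside 22.7% and 22.3% of all genes tested. Blcap, whose intron holds Nnat, read 10.21 and 10.14 in fNSC and 10.74 and 10.68 in pNSC, so the host gene stood 0.54 higher where Nnat stood 4.91 lower. Herc3, which holds Nap1l5, read 7.10 and 7.27 against 6.63 and 7.59, and the groups overlapped. Beside the Snrpn region, the magnesium transporter gene Nipa1 read 10.15 and 10.03 against 11.38 and 11.09 and was called (2.21-fold), while its relative Nipa2 at 11.02 and 10.84 against 11.57 and 11.36 and Herc2 (log2 difference 0.43) were not. The Nipa1 call was lost without the first pNSC array, where its log2 difference was 0.99.

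On the chromosome 6 side, Tmem209, near Mest, read 10.77 and 10.36 against 11.60 on both pNSC arrays and was called at 2.06-fold, which fell to a log2 difference of 0.84 without the second fNSC array and to 0.96 and 0.97 under both other normalizations, where it was not called. Klhdc10, in the same neighbourhood, read 12.88 and 12.85 against 13.33 and 13.37 and was not called. Lsp1, a leukocyte actin-binding protein gene near Igf2, read 4.90 and 4.97 against 8.06 and 8.01, at least 3.54-fold higher. The only neighbour that fell was Bag3, a co-chaperone beside Inpp5f, which read 10.79 and 10.89 against 7.54 and 7.5, 10-fold lower (limma adjusted p = 2.73e-06). Mcmbp, on the other side of Inpp5f, read 11.35 and 11.33 against 11.30 and 11.33. No neighbour of Mest, Snrpn, Nnat or Nap1l5 on the list was called lower.

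Genes of proteins that set or keep imprints were mostly not called. Of 13 measured regulators 0 rose and 2 fell, with a median of -0.09. Dnmt3b, which methylates DNA anew, read 9.48 and 9.51 in fNSC and 8.03 and 7.94 in pNSC, a 2.85-fold fall. Ctcfl, a relative of the insulator protein CTCF, read 7.44 and 7.43 against 6.54 and 6.24, and its call did not hold without the second pNSC array (log2 difference -0.9), the first fNSC array (-1.04, limma adjusted p = 0.0553) or the second (-1.05, limma adjusted p = 0.0541), nor under both other normalizations (-0.44 and -0.45). Dnmt1, which copies methylation at replication, read 11.37 and 11.65 against 11.50 and 11.64, and Trim28, which protects imprints in the early embryo, read 13.51 and 13.59 against 13.37 and 13.18. Neither was called.

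Insulin-like growth factor signalling, which includes the imprinted genes Igf2 and Igf2r, had 10 measured members of which 3 rose and 1 fell (median 0.37). Igfbp4, a secreted protein that binds IGFs, read 9.48 and 9.66 in fNSC and 12.07 and 12.15 in pNSC, 5.84-fold higher. Its relative Igfbp5 read 10.17 and 10.24 against 11.75 and 11.84, 3.01-fold higher. Igf2bp3, an RNA-binding protein named for its binding of Igf2 mRNA, read 5.50 and 5.12 against 7.24 and 6.99, at least 1.87-fold higher. Igfbp7 went down, from 8.14 and 7.81 to 6.18 and 6.54. Igf2bp3 (0.63 and 0.64) and Igfbp7 (-0.75 and -0.77) lost their calls under both other normalizations. The receptor Igf1r read 7.08 and 6.39 against 6.79 and 6.74 and overlapped.

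Over all genes, 928 of 8107 were called (11.4%), 533 of them higher and 395 lower in pNSC. The median size of a call was 1.56 on the log2 scale among higher genes and -1.3 among lower ones, and 63 higher and 35 lower genes changed over 8-fold. Among called genes, 164 were detected on both pNSC arrays and no fNSC array, and 95 on both fNSC arrays and no pNSC array. Log2 differences had an SD of 0.261 between the fNSC arrays and 0.258 between the pNSC arrays, against 0.813 to 0.825 between an array of each group. Per array, 10553 to 10902 of 25697 probes were detected. An adjusted p under 0.05 alone, with no threshold on the fold, was met by 22.7% of the genes in the higher and 22.3% in the lower direction.

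The largest rises included genes of secreted and matrix proteins. Reln, the reelin protein that guides migrating neurons, read 6.28 and 6.40 in fNSC and 11.69 on both pNSC arrays, 40.7-fold higher (limma adjusted p = 1.64e-07). Scara3, a scavenger receptor-like protein linked to oxidative stress, read 4.59 and 4.61 against 11.52 and 11.56, at least 40.3-fold higher. Anxa2, a calcium-dependent membrane-binding protein, read 8.34 and 8.19 against 13.43 and 13.46, 36.2-fold higher. Every array of pNSC was far above every array of fNSC for these 3 genes. Flt1, a receptor of vascular endothelial growth factor, rose 27.4-fold, from 7.17 and 7.11 to 11.90 and 11.93. Sulf1, which trims sulfate from heparan sulfate, rose at least 12.6-fold, and Cela1, an elastase, at least 12.4-fold. Col4a6, a basement membrane collagen of the X chromosome, rose at least 15.3-fold and Mfap2, a component of elastic microfibrils, at least 11.4-fold. The other Mfap2 probes stood at 0.71 and 2.3, so the size of that rise differs between probes.

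Among the largest falls outside the imprinted genes, Sspn, a membrane protein of the dystrophin complex, read 10.92 on both fNSC arrays and 4.73 and 4.6 in pNSC. Vxn, named vexin and known from neurogenesis in frogs, read 12.15 and 12.25 against 6.46 and 6.43, 54.2-fold lower. Cops8, a subunit of the COP9 signalosome, fell 38.9-fold, from 11.78 and 11.89 to 6.32 and 6.78. Cd93, a lectin-like surface receptor, read 11.15 and 11.55 against 6.06 and 6.31, at least 34.6-fold lower. Cldn12, a claudin of cell junctions, fell at least 12-fold. Ifitm3, a membrane protein that blocks virus entry, fell 27.2-fold from 14.91 and 14.95, among the brightest of all genes here, to 10.19 and 10.14.

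**Figure D2:**
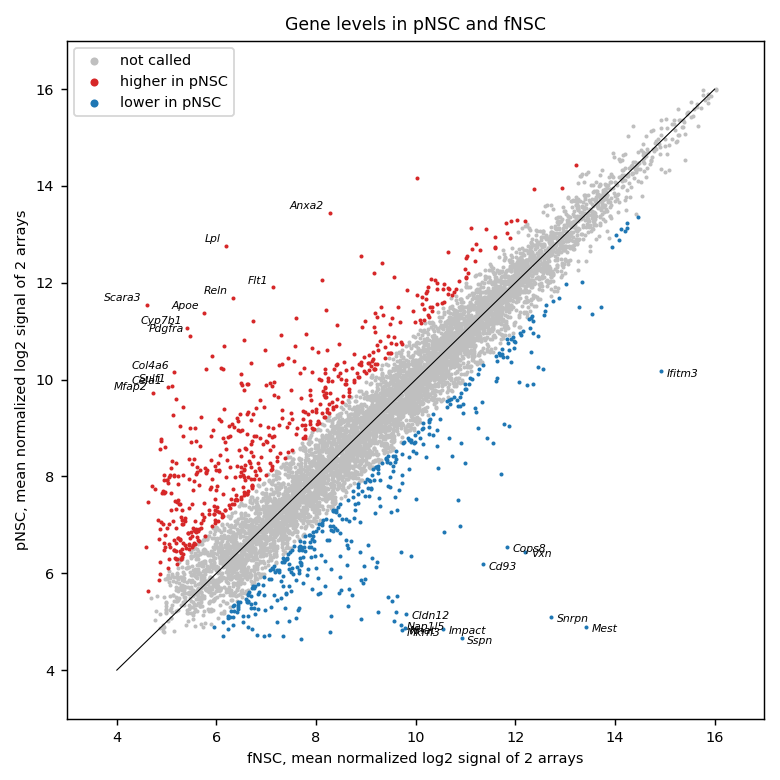
Mean normalized log2 signal of each gene over 2 fNSC arrays (horizontal) and 2 pNSC arrays (vertical), for 8107 genes, with 533 genes called higher in pNSC in red, 395 called lower in blue and the line of equality in black. The 12 largest rises and 12 largest falls are named, and Mest, Snrpn and Sspn lie farthest below the line.

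Genes of chromosome 4 stood lower in pNSC as a whole, and those of chromosome 19 to a lesser degree. On chromosome 4, 112 of 493 genes were lower (22.7%) and 14 higher, and the median log2 difference was -0.7, with 87.8% of the genes below 0. That median puts pNSC at 61.5% of the fNSC level. On chromosome 19, 36 of 290 genes were lower (12.4%) and 8 higher, with a median of -0.47, or 72.2% of the fNSC level. On the other 18 chromosomes with at least 50 measured genes the medians lay between 0 and 0.08. Together, chromosomes 4 and 19 gave 148 of the 395 lower genes. With the other normalizations the chromosome 4 median was -0.5 and -0.47, and the chromosome 19 median was -0.33 under each.

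The shift ran along the whole length of chromosome 4. Cut into 5 parts of 98 or 99 genes in order, the chromosome had medians of -0.59, -0.80, -0.71, -0.67 and -0.72, with 20 to 26 lower genes in each. The median over 31 neighbouring genes stayed between -0.94 and -0.36, whereas on chromosome 2, which has the imprinted Nnat, it moved between -0.24 and 0.28. The 5 parts of chromosome 19 had medians of -0.54, -0.43, -0.52, -0.49 and -0.46. Any pairing of a pNSC with an fNSC array gave a chromosome 4 median of -0.70 to -0.68 and a chromosome 19 median of -0.50 to -0.43. For comparison, the chromosome 4 median was -0.04 between miPS-NSC and fNSC and -0.63 between pNSC and miPS-NSC, and the chromosome 19 median was -0.50 between miPS-NSC and fNSC and 0.05 between pNSC and miPS-NSC. Chromosome 4 was low in pNSC against both other neural stem cell groups, and chromosome 19 was high in fNSC against both. These comparisons share arrays. Chromosome number was not measured. Between pNSC and fNSC alone, genotype, P number and the genome's origin differ together, and their parts cannot be told apart. The miPS-NSC share the genotype label OG2+/- with the pNSC and differ from them in P number. The part of genotype in the shift of either chromosome was not tested.

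**Figure D3:**
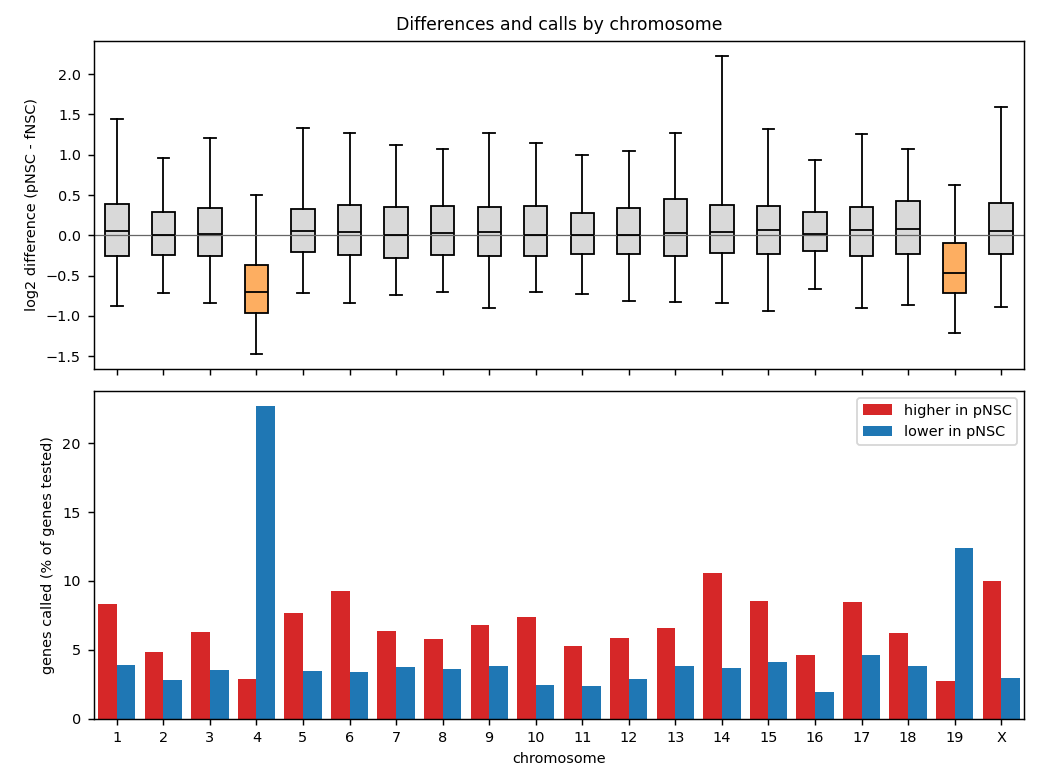
Upper panel, log2 difference of the genes of each chromosome (pNSC minus fNSC; box, quartiles with the median; whiskers, 5th to 95th percentile), with chromosomes 4 and 19 in orange. Lower panel, share of tested genes called higher (red) or lower (blue), which reaches 22.7% lower on chromosome 4 and 12.4% on chromosome 19.

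**Figure D4:**
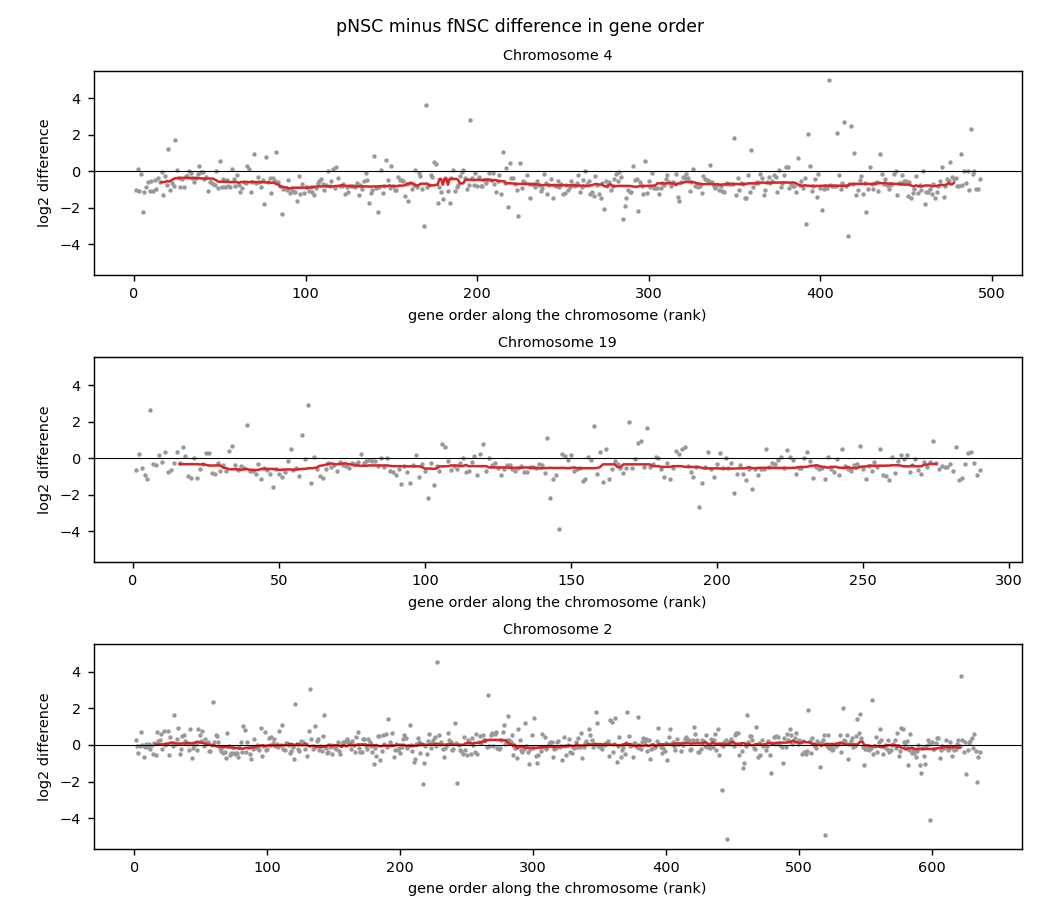
Log2 difference (pNSC minus fNSC) of single genes (grey) in their order along chromosomes 4, 19 and 2, with the running median over 31 genes in red. On chromosome 4 the running median keeps between -0.94 and -0.36 and on chromosome 19 between -0.66 and -0.29, whereas on chromosome 2 it stays between -0.24 and 0.28.

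Single genes of chromosome 4 went well past its median. Casp9, the initiator caspase of the mitochondrial death pathway, read 9.92 and 9.88 in fNSC and 6.34 and 6.38 in pNSC, 11.6-fold lower. Mul1, a mitochondrial ubiquitin ligase, read 8.55 and 8.47 against 5.64 and 5.66, at least 4.91-fold lower. Cap1, an actin-binding protein, fell 6.23-fold, Glipr2, a protein of the Golgi membrane, 5.04-fold, and Whrn, the scaffold whirlin, 4.72-fold. Elavl4, an RNA-binding protein of neurons, fell at least 3.53-fold and Draxin, an axon guidance protein, at least 2.0-fold, the latter not called under both other normalizations (-0.81 and -0.82). The neighbouring inhibitors of the cell cycle Cdkn2a and Cdkn2b went opposite ways. Cdkn2a read 8.77 and 9.03 against 6.30 and 5.45, at least 6.14-fold lower, and Cdkn2b read 7.18 and 6.77 against 10.42 and 10.81, 12.5-fold higher. The other Cdkn2a probe stood at -1.06 on the log2 difference scale, beside -3.02 for the probe used. Neither gene had overlapping arrays, which is so for every called gene.

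Markers of neural stem cells were present in both groups. All 10 measured markers were detected on all 4 arrays and 0 were called, with a median of 0.07 whose sign turned (-0.17) when a gene's probes were averaged. Sox2, a transcription factor of neural progenitors, read 8.33 and 9.04 in fNSC and 8.33 and 8.94 in pNSC. Nes, the filament protein nestin, read 12.32 and 12.23 against 12.18 and 11.94. Fabp7, a fatty acid binding protein of radial glia, read 9.81 and 10.37 against 9.56 and 9.90, and the groups overlapped for Sox2 and Fabp7. Xist, the RNA of the inactive X chromosome, was detected on all 4 arrays, at 8.17 and 8.13 against 8.34 and 8.17.

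Markers of differentiated cells varied gene by gene. Of 7 measured astrocyte genes 3 rose and 0 fell (median 0.89, and 0.78 and 0.31 with the other normalizations, under which 3 were again higher), Apoe among them, whose values are given with the lipid genes. Gja1, the gap junction protein connexin 43 of astrocytes, read 10.01 and 10.02 in fNSC and 14.11 and 14.24 in pNSC, 17.9-fold higher. Clu, a secreted chaperone, read 7.34 and 7.52 against 10.49 and 10.41, 8.13-fold higher. The glutamate transporter Slc1a2 went the other way without a call, from 8.44 and 8.29 to 7.71 and 7.60. Summed over the list on a linear scale, astrocyte signal was 15300 and 16400 in fNSC and 40700 and 41500 in pNSC. Most of this rise is that of Gja1 alone, and 4 of the 7 genes were not called. On such arrays fewer cells of a type and less RNA per cell cannot be told apart.

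Of 10 neuron genes 3 rose and 2 fell (median 0.29). Eno2, the neuronal enolase, read 6.51 and 6.49 against 9.93 and 9.95, 10.8-fold higher, and Nrn1, which promotes neurite growth, 6.94 and 7.38 against 9.69 on both arrays. Syt1, a calcium sensor of synaptic vesicles, was detected on 1 fNSC array and no pNSC array, and was not called under both other normalizations (-0.52 and -0.50). Gad1, an enzyme that makes the transmitter GABA, was called at 2.15-fold, a call lost without the first pNSC array (log2 difference 0.86) or the first fNSC array (0.91) and under both other normalizations (0.48 and 0.50). In the oligodendrocyte lineage only the growth factor receptor Pdgfra was called among 7 genes, from 5.6 and 5.32 to 10.80 and 11.01, at least 25.9-fold higher. Olig2, which specifies that lineage, read 8.29 and 7.85 against 8.01 and 7.76, with overlap.

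Genes of other cell types gave no shared rise. Of 8 measured fibroblast genes 1 was higher and 1 lower, and the defining genes Col1a2 and Thy1 were not detected on any of the 4 arrays. The summed fibroblast signal was 3510 and 3440 in fNSC and 2450 and 2530 in pNSC. The mesenchymal transcription factors Twist1 and Twist2 went opposite ways, Twist1 from 8.87 and 8.93 to 5.28 and 4.85 and Twist2 from 4.79 and 4.87 to 7.04 and 7.17. The Twist2 call was lost under both other normalizations (0.85 and 0.83). Of 11 endothelial, mural and microglial genes 2 had a named probe and 0 passed the detection filter. None of the 3 measured ependymal genes was called. Of 7 pluripotency genes only Klf4, a chromosome 4 gene, was called, from 6.44 and 6.81 to an undetected 5.23 and 5.57, and it was not called under both other normalizations (-0.40 and -0.43).

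Genes that mark positions along the neural tube gave 3 higher and 1 lower of 12 measured members. Otx2, a factor of forebrain and midbrain, read 4.95 and 5.48 in fNSC and 7.70 and 7.32 in pNSC, at least 2.47-fold higher. Gbx2, its opponent at the boundary of midbrain and hindbrain, read 9.55 and 9.69 against 7.27 and 7.35, 4.95-fold lower. En1, a factor of that boundary, read 5.90 and 5.12 against 7.37 and 7.49. Hoxa4, a hindbrain and spinal cord gene, read 7.44 and 7.40 against 9.24 and 8.81, 3.04-fold higher. The arrays of the groups did not overlap for these 4 genes, which is so for every called gene. Otx2 (0.87 and 0.87) and En1 (0.72 and 0.74) lost their calls under both other normalizations, which leaves Hoxa4 higher and Gbx2 lower.

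Among genes downstream of EGF and FGF, the factors in the medium, 3 of 16 rose and 0 fell (median 0.19). Dusp4, a phosphatase that shuts off MAP kinases, read 8.44 and 8.38 in fNSC and 10.37 and 10.25 in pNSC, 3.74-fold higher. Ier3, an early response gene, rose 2.40-fold. Phlda1, another early response gene, rose 2.20-fold, a call lost without the first fNSC array (log2 difference 0.93). The receptor Egfr read 12.71 and 12.70 against 11.74 and 11.72, which is 1.97-fold lower and just short of the threshold on the fold. The cyclin gene Ccnd1 read 14.38 and 14.37 against 15.17 and 15.30 without a call.

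In the Notch pathway 1 of 12 genes rose and 1 fell (8.33% each), beside 6.57% and 4.87% of all genes tested. The receptor Notch3 read 9.15 and 9.05 against 10.25 and 10.31, 2.27-fold higher (0.98 and 0.99 under both other normalizations, just short of a call), and the target Hes5, which lies on chromosome 4, read 10.83 and 10.96 against 9.51 and 9.39, 2.72-fold lower. Of 17 Wnt genes 4 were called higher and 0 lower. By the adjusted p alone 5 were higher (29.4%) and 7 lower (41.2%), beside 22.7% and 22.3% of all genes tested. The receptor Fzd1 read 6.32 and 6.59 against 8.61 and 8.49, 4.28-fold higher, and the ligand Wnt7b 10.06 and 9.98 against 11.74 and 11.76, 3.32-fold higher. Sfrp2, a secreted modulator of Wnt, rose 2.37-fold and the co-receptor Lrp6 2.22-fold, the latter not called without the first fNSC array (log2 difference 0.98). Under both other normalizations Sfrp2 (0.61 and 0.63) and Lrp6 (0.50 and 0.51) lost their calls, which leaves 2 higher genes. The ligands Wnt7a and Wnt5a stood lower without a call, at 11.12 and 11.09 against 10.16 and 10.41 and at 12.35 and 12.40 against 11.62 and 11.43.

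BMP and TGF-beta genes gave 2 higher and 2 lower of 21 (9.52% each), beside 6.57% and 4.87% of all genes tested. Bmp1, a protease that matures collagen, rose 2.39-fold, from 12.08 and 12 to 13.29 and 13.30, and the receptor Bmpr1b fell 2.44-fold, from 10.18 and 9.98 to 8.70 and 8.89. The ligand Tgfb3 was higher (at least 1.32-fold) but not without the first fNSC array (log2 difference 0.92), and the ligand Bmp7 was lower (at least 1.85-fold) but not without the second pNSC array (-0.72). Of 2 measured Hedgehog genes, the inhibitor Sufu on chromosome 19 was lower, a call lost without the second pNSC array (-0.77). Under both other normalizations Tgfb3 (0.38 and 0.38), Bmp7 (-0.43 and -0.45) and Sufu (-0.37 and -0.38) were not called.

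Genes of DNA replication had a median above 0 and those of mitosis a median below it. Of 24 replication genes 0 were called, and their median was 0.26. By the adjusted p alone 9 were higher (37.5%) and 3 lower (12.5%), beside 22.7% and 22.3% of all genes tested. The replication helicase gene Mcm4 read 14.15 and 14.03 in fNSC and 14.48 and 14.62 in pNSC, and Rrm2, which makes nucleotides for DNA, 10.47 and 10.20 against 11.09 and 10.99. Of 18 mitosis genes 0 rose and 4 fell, with a median of -0.59, and by the adjusted p alone 12 were lower (66.7%) and 1 higher (5.56%), beside the same 22.3% and 22.7%. Cenpa, the histone of the centromere, read 14.19 and 14.24 against 13.53 and 13.49, and Aurka, a kinase of the spindle poles, 12.57 and 12.49 against 11.90 and 11.80, neither past 2-fold. Cdc20, which starts the exit from mitosis, read 12.33 and 12.26 against 10.90 and 11.23, Cdca8, of the chromosomal passenger complex, 10.61 and 10.65 against 9.47 and 9.38, and Stmn1, a microtubule destabiliser, 9.38 and 9.79 against 8.18 and 8.40. All 3 lie on chromosome 4. Without chromosomes 4 and 19 the mitosis median was -0.54. The fourth, the ubiquitin carrier gene Ube2c, read 6.95 and 7.81 against 6.03 and 6.51 and was not called without the first pNSC array (log2 difference -0.87) or the second fNSC array (-0.68). Under both other normalizations Stmn1 (-0.96 and -0.98) and Ube2c (-0.47 and -0.48) were not called, which leaves 2 lower genes. Over all settings tried the replication median stayed between 0.21 and 0.30 and the mitosis median between -0.68 and -0.47.

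Of 18 p53 targets and cell cycle inhibitors, Cdkn2b and Gadd45a rose and Cdkn2a fell. Gadd45a, a stress sensor of growth arrest, read 8.29 and 8.82 against 10.41 and 10.33, 3.52-fold higher. The p53 target Cdkn1a read 13.19 and 13.21 against 12.81 and 12.89 and was not called.

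Lipid genes held some of the largest rises, with 4 higher and 2 lower of 13. Lpl, the lipase that frees fatty acids from lipoproteins, read 6.15 and 6.23 in fNSC and 12.79 and 12.74 in pNSC. Cyp7b1, which hydroxylates oxysterols, read 5.23 and 5.59 against 11.02 and 11.12, and the lipid carrier Apoe 6.06 and 5.45 against 11.44 and 11.31. The 3 genes were not detected on both fNSC arrays, and their rises were at least 93.3-fold, 29.0-fold and 35.9-fold. Acsl6, which activates fatty acids, rose 2.87-fold on its brightest probe (log2 difference 1.52). Its other probe, detected on both arrays of each group, stood at 0.11, so that rise differs between probes. The importer of lysolipids Mfsd2a, on chromosome 4, fell 3.69-fold, and the lipoprotein receptor Vldlr, on chromosome 19, fell 2.20-fold.

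Cholesterol synthesis genes were mostly not called, with 1 higher and 1 lower of 18. Msmo1, a sterol oxidase, read 11.31 and 11.36 against 9.38 and 9.70, 3.47-fold lower. Insig1, which retains the sterol sensor, was 2.08-fold higher, a call lost without the second pNSC array (log2 difference 0.96) or the first fNSC array (0.78), and under both other normalizations (0.99 and 0.99).

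Of 28 glutathione and oxidative stress genes 5 rose and 0 fell (median 0.28). Mgst1, a microsomal glutathione transferase, read 9.78 and 9.52 against 11.35 and 11.65, 3.59-fold higher. Gsta4, which detoxifies products of lipid oxidation, rose 3.17-fold and Srxn1, which repairs peroxiredoxins, 3.09-fold. Gstm1 rose 2.33-fold and Gstt1 at least 1.93-fold, the latter not called under both other normalizations (0.51 and 0.53). Transferases of the Gstm family are near-identical, and probes may share their RNA. Of 18 interferon and antigen presentation genes 1 was called, the Ifitm3 described above, and the list median was 0.27.

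Extracellular matrix genes changed in both directions, with 7 higher and 5 lower of 24 (median 0.57). Mmp14, a membrane-bound protease, read 4.88 and 5.04 in fNSC and 8.57 and 8.65 in pNSC, at least 5.27-fold higher. Col6a1, a chain of collagen VI, read 8.13 and 8.25 against 11.41 and 11.46, 9.51-fold higher, and its partner chain Col6a2 read 5.43 on both fNSC arrays against 6.97 and 6.72. The basement membrane genes Nid2 (3.23-fold) and Col4a5 (3.0-fold), the protease inhibitor Timp3 (2.64-fold) and the protease Mmp2 (2.10-fold) rose as well. Lamc1, a laminin chain shared by many laminins, fell 3.37-fold, from 12.35 and 12.29 to 10.59 and 10.55, and the matrix linker Fbln2 fell at least 2.28-fold. Lama1, another laminin chain, was lower, but not without the second pNSC array (log2 difference -0.85). Tnc, the tenascin of the stem cell niche, and Hspg2, the proteoglycan perlecan, fell 2.30-fold and 2.21-fold, and both lie on chromosome 4. Under both other normalizations 5 genes were higher and 2 lower, with medians of 0.31 and 0.32, since Col6a2 (0.47 and 0.47), Mmp2 (0.49 and 0.50), Fbln2 (-0.67 and -0.71), Lama1 (-0.42 and -0.44) and Hspg2 (-0.92 and -0.93) lost their calls.

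**Figure D5:**
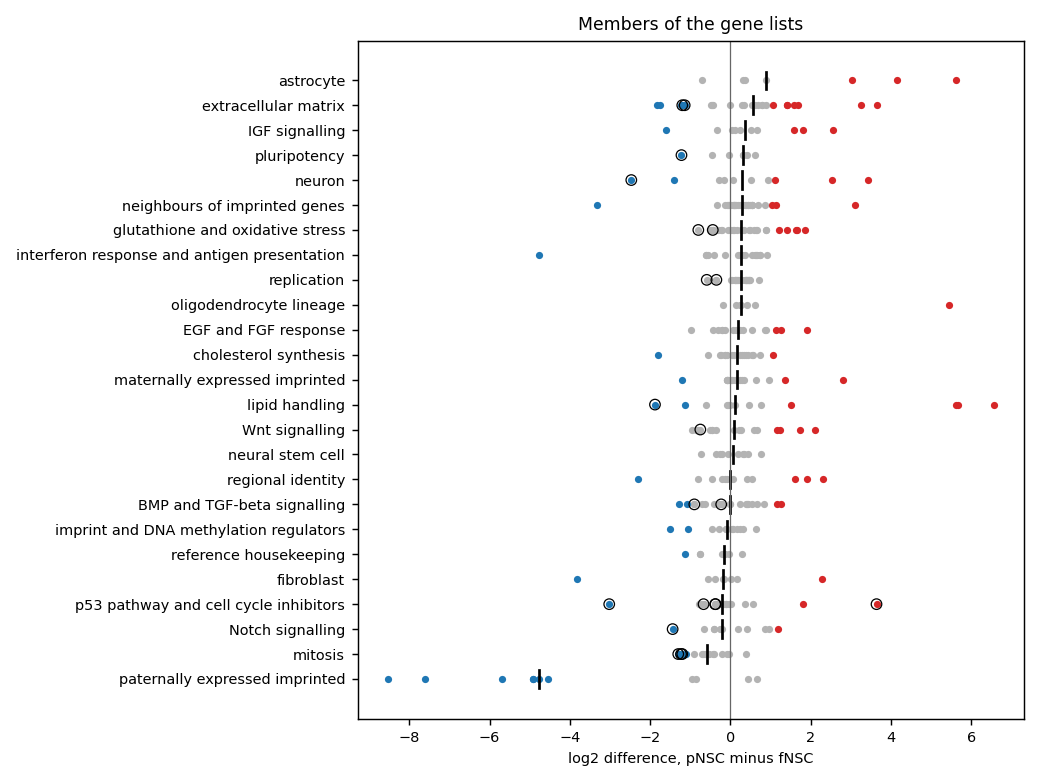
Log2 difference (pNSC minus fNSC) of each measured member of the gene lists with at least 7 measured members, in red where called higher, blue where called lower and grey where not called, with a ring around genes of chromosome 4 and a bar at the list median. Paternally expressed genes have the lowest median (-4.77), mitosis genes come next (-0.59), and astrocyte genes have the highest (0.89), which with the authors' processed values is 0.31 and below the 0.43 of neuron genes.

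Of 9 genes often used as references 1 was called, the ribosomal protein gene Rpl13a, which read 12.32 and 12.38 in fNSC and 11.15 and 11.28 in pNSC, 2.20-fold lower. The median of the reference genes was -0.16, beside -0.7 for the genes of chromosome 4.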

How the data were processed

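The deposited signals are bead-averaged intensity values of 25697 probes and 8 arrays, per the file headers, each with a deposited detection p-value. The submitters' processing notes name GenomeStudio 2009.2. The authors' own log2 values, which cover 12421 probes, served as an alternative. The annotation of these probes gave 1 symbol to 11692 and none to 729, and 11686 of them matched a RefSeq gene of GRCm38.p6, from which chromosomes and promoters were taken. Probes outside the authors' values have no gene name here, so that genes present in few groups may be under-represented. The neqc function of limma 3.58.1 corrected the background, took log2 and equalised quantiles (offset 16), in R 4.3.3 with the package data.table in version 1.17.8. Probes were kept where at least 1 group had a detection p under 0.01 on both of its arrays, and the brightest kept probe stood for the gene.

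All 8 arrays were fitted with lmFit and eBayes (4 residual and 2.98 prior degrees of freedom), with pNSC minus fNSC as the contrast, two-sided p-values and Benjamini-Hochberg adjustment over 8107 genes. The bound behind "at least" sets the bright group against the floor of its array, the lowest signal among detected probes (6.13 to 6.29), or the probe's own value, whichever is higher, and the number of arrays limits the precision. Genes and the 28 lists were chosen with earlier results of these data known. Named were the 12 largest changes each way, the 10 smallest adjusted p, the imprinted lists, called members of the other lists with members at their ends, and the 8 largest falls of any chromosome with over 3 times the share of lower calls of all genes. Other uncalled members were added as values after these were seen. The title endings pair no samples by the labels, and deviations of like-ended arrays correlated at 0.07 across genes. Alternatives were the normalization, the authors' values, the detection filter, the probe rule, the arrays in the fit, the offset, the fold threshold, a block for the title ending, each array left out and chromosomes 4 and 19.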

Additional observations from a re-analysis of the deposited data

How the results depend on the processing

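Both the normalization and the fold threshold moved the number of called genes by over 1.5 times. Quantile normalization without background correction gave 436 calls (277 higher, 159 lower; 49 lower on chromosome 4 and 13 on chromosome 19), and the authors' processed values gave 446 (286, 160, 50 and 13). The chromosome 4 median was then -0.5 and -0.47, and the chromosome 19 median -0.33 under each. All 436 and all 446 were called in the same direction as in the setting reported, and the cause of the drop was not tested. Of the 120 named genes the same 28 lost their calls under both settings, and each is named with its values in the results. Under quantile normalization all 28 kept their direction and an adjusted p under 0.05, and missed the threshold of 2-fold. The paternally expressed median was -2.51 and -2.41. With no fold threshold 3652 genes passed (1844 higher, 1808 lower, 364 lower on chromosome 4, 170 on chromosome 19), Igf2 among them as 1 paternally expressed gene on the higher side. Leaving out chromosomes 4 and 19, chosen after seeing the data, left 247 lower genes and made 67.4% of calls higher, against 57.4%. Centring both chromosomes on their medians, also chosen after seeing the data, gave 67.3%, left 19 lower genes on chromosome 4 and 7 on chromosome 19, and ended the calls of Cdc20, Cdca8, Hes5, Hspg2, Klf4, Stmn1, Sufu, Tnc and Vldlr. A neqc offset of 50 gave 691 calls. Leaving out 1 array at a time, with the lone array assumed to vary like the other groups, gave 943 to 974 calls and 7 to 9 lower paternally expressed genes. A replicate block on the title ending gave 929 calls, and the endings are not known to pair the arrays. Of the 928 called genes, 1 took the opposite sign when the probes of a gene were averaged, and 0 did so under the other alternatives run. The signal over background limits the folds of 212 higher and 149 lower genes to bounds.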

Other observations

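Probes without a gene name were called in much the same proportion as all detected probes. Of 1520 detected probes with no name, 79 were higher and 61 lower in pNSC by the same rule, beside 725 and 582 of all 12478 detected probes. Of the unnamed probes, 67 were detected on both pNSC arrays and no fNSC array, and 37 the other way round, beside 366 and 303 of all 12478. The share detected in pNSC alone was thus larger among the unnamed probes.

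Among the 181 called genes with a further detected probe, 236 of 245 further probes had the sign of the call and 143 also reached 2-fold. In 1 gene, Fuom, a fucose-metabolism enzyme, a further probe went past 2-fold the opposite way, at 4.59 against -1.13 on the log2 difference scale. That gene was chosen after its values were seen.

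On chromosome 19 the largest fall was that of Gnaq, a G protein subunit that couples receptors to phospholipase C, chosen after its values were seen. It read 10.82 and 10.93 on the fNSC arrays and 6.95 and 6.99 on the pNSC arrays, 15-fold lower (limma adjusted p = 2.95e-07). On chromosome 4, Pdpn, the membrane glycoprotein podoplanin, also chosen after its values were seen, rose against the shift of its chromosome, from 6.61 and 7.29 to 9.48 and 9.41, 5.63-fold.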
